A study of Mus musculus with 9 samples.

Results

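The transcripts described here are 89 genes of mouse embryonic stem cells whose RNA was lower after 30 min with CHIR. With BRD0705 their means stayed within a set band around control, though in some of them every BRD0705 library was also below control. The 89 were chosen from 52264 gene symbols in the deposited normalised table by a fixed set of limits. A gene had a mean of at least 50 normalised counts in the control libraries, a mean with CHIR of at most 0.65 of that, and every CHIR library below every control library. Its BRD0705 mean lay between 0.85 and 1.2 of the control mean. A normalised count is a gene's raw read count divided by 1 scaling factor per library; it is not corrected for gene length. Of 11915 genes with a control mean of at least 50, 142 met the CHIR limit, 133 of them also had no overlap with control, and 101 of those lay in the BRD0705 band. From these 101 genes, 8 numbered Zfp zinc finger genes and 4 listed symbols (Ppp1r10, Dido1, Fbxo32 and Zc3h11a) were left out, which gave the 89. These limits used all 9 libraries, so the differences between groups that follow are a description of the choice and carry no test. The working name of the set speaks of loss, but the RNA of no gene was gone: the median gene kept 0.608 of its control level.

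The cells of all 9 libraries were mouse embryonic stem cells of the β-catenin-/- genotype, per their labels, that is, without the protein through which Wnt signals reach their target genes. Cells were kept on feeder-treated dishes and expanded in medium with 3 µM CHIR-99021, 1 µM PD03 and 40 ng/ml LIF, then moved to N2B27 medium overnight. The cells of 3 libraries then had BRD0705 and those of 3 had CHIR for 30 min. The titles of the 3 control libraries call them untreated, while the protocol lists a control treatment beside the other two and names no vehicle. The doses of the 30 min treatments are not given in the labels, so no matched dose can be stated, and every group had met CHIR-99021 during expansion. The labels do not say whether the 3 libraries of a group came from separate cultures, so p-values measure only the spread between these samples. They also do not say whether the cells are 1 clone.

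CHIR, short for CHIR-99021, inhibits both glycogen synthase kinase 3 paralogues, GSK3α and GSK3β, and BRD0705 is known as an inhibitor selective for GSK3α. GSK3 is a serine/threonine kinase whose best known substrate is β-catenin, but it also phosphorylates transcription factors, splicing factors and other proteins. The level of an RNA is set by its synthesis and its decay, and when synthesis stops, only short-lived RNAs lose much of their level within minutes. Splicing, polyadenylation and the elements of the 3′ untranslated region are among the features known to bear on how long an RNA lasts.

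Promoter sequence is shown for 6 of the genes, because promoter sequence is a feature that the choice of genes did not use. The sequences are 120 bases directly upstream of the RefSeq start site in the GRCm38.p6 build, 5′ to 3′ on the gene's strand. Capitals mark every full match, on either strand, to 8 short motifs. The TATA box was searched as TATAAA, the box bound by NF-Y as CCAAT, the GC box as GGGCGGG, the E-box as CACGTG, the cyclic AMP response element as TGACGTCA, the ETS factor site as CCGGAAG and the TCF site of Wnt targets as CTTTGAT; the last was the palindromic motif of NRF1. In the longer promoter windows described below, CCAAT had the largest share of the 8 motifs in the set. There it was in 50% of promoters, against 38.4% for genes with a control mean of at least 50. Among the 6 printed, Tasor, Hykk and Irs2 carry CCAAT, and Rfx5 carries it in 2 places. Cited4 carries it in 2 places beside a TATA box, and Chst3 shows a window with no match. Tasor, Irs2 and Cited4 also carry the GC box, and Irs2 an E-box. These 6 genes were picked after their sequences were seen, so their motifs do not show how common a motif is in the set.

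Tasor, chr14:27428714-27428833, plus strand:
Tasor: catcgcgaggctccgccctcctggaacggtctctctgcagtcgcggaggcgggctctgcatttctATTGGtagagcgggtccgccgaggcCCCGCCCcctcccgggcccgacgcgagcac

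Hykk, chr9:54917170-54917289, plus strand:
Hykk: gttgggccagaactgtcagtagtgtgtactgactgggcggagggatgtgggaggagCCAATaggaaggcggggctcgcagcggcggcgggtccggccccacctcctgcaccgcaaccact

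Irs2, chr8:11008930-11009049, minus strand:
Irs2: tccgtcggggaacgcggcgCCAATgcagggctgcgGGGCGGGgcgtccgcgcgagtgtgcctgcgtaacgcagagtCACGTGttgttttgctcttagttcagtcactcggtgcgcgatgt

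Rfx5, chr3:94953988-94954107, plus strand:
Rfx5: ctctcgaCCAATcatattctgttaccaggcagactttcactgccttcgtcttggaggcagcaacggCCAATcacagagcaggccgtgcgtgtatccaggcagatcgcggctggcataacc

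Cited4, chr4:120666443-120666562, plus strand:
Cited4: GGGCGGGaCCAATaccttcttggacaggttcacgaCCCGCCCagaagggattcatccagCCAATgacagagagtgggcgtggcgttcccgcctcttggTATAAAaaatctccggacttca

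Chst3, chr10:60219261-60219380, minus strand:
Chst3: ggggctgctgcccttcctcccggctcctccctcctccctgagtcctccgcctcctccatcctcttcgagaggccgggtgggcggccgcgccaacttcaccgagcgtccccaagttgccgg

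Raw totals ran from 17359422 to 20773337 counts per library. All 10 embryonic stem cell markers examined, Pou5f1, Sox2 and Nanog among them, were read in each library, the lowest of them (Zfp42) at a control mean of 917, with sums of 96881 to 105230 normalised counts. All 10 fibroblast markers, which can come from feeder cells, were read as well. Their means were higher than in control in 10 of 10 cases with CHIR and in 10 of 10 with BRD0705, with sums of 44575 to 53521 in control, 57000 to 58872 with BRD0705 and 51491 to 61152 with CHIR. Their part in the results was not tested. The symbol Ctnnb1, which encodes β-catenin, was read at 5849 to 7204 in all 9 libraries, and since the labels do not say which part of the gene was removed, its count does not check the genotype. In bulk RNA, fewer cells that hold a transcript and less of it per cell cannot be told apart.

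Across the 89 genes the CHIR to control ratio had a median of 0.608 and ran from 0.271 to 0.6496, against a median of 1.01 over all 11915 genes with a control mean of at least 50. The BRD0705 to control ratio had a median of 0.994 and ran from 0.851 to 1.19, against 1.00 over all genes. Few were at 0.5 of control or less: 6 genes had such a ratio, 30 lay between 0.5 and 0.6, and 53 lay above 0.6. The limits asked each CHIR library to lie below every control library, so likeness among the CHIR libraries follows in part from the choice. The median gene stood at 0.998, 1.01 and 0.972 of its control mean in the 3 control libraries, at 1.02, 1.01 and 0.995 in the BRD0705 libraries, and at 0.589, 0.595 and 0.606 in the CHIR libraries. CHIR replicate 1 was the lowest of the 3 for 29 genes, replicate 2 for 37 and replicate 3 for 23.

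**Figure D1:**
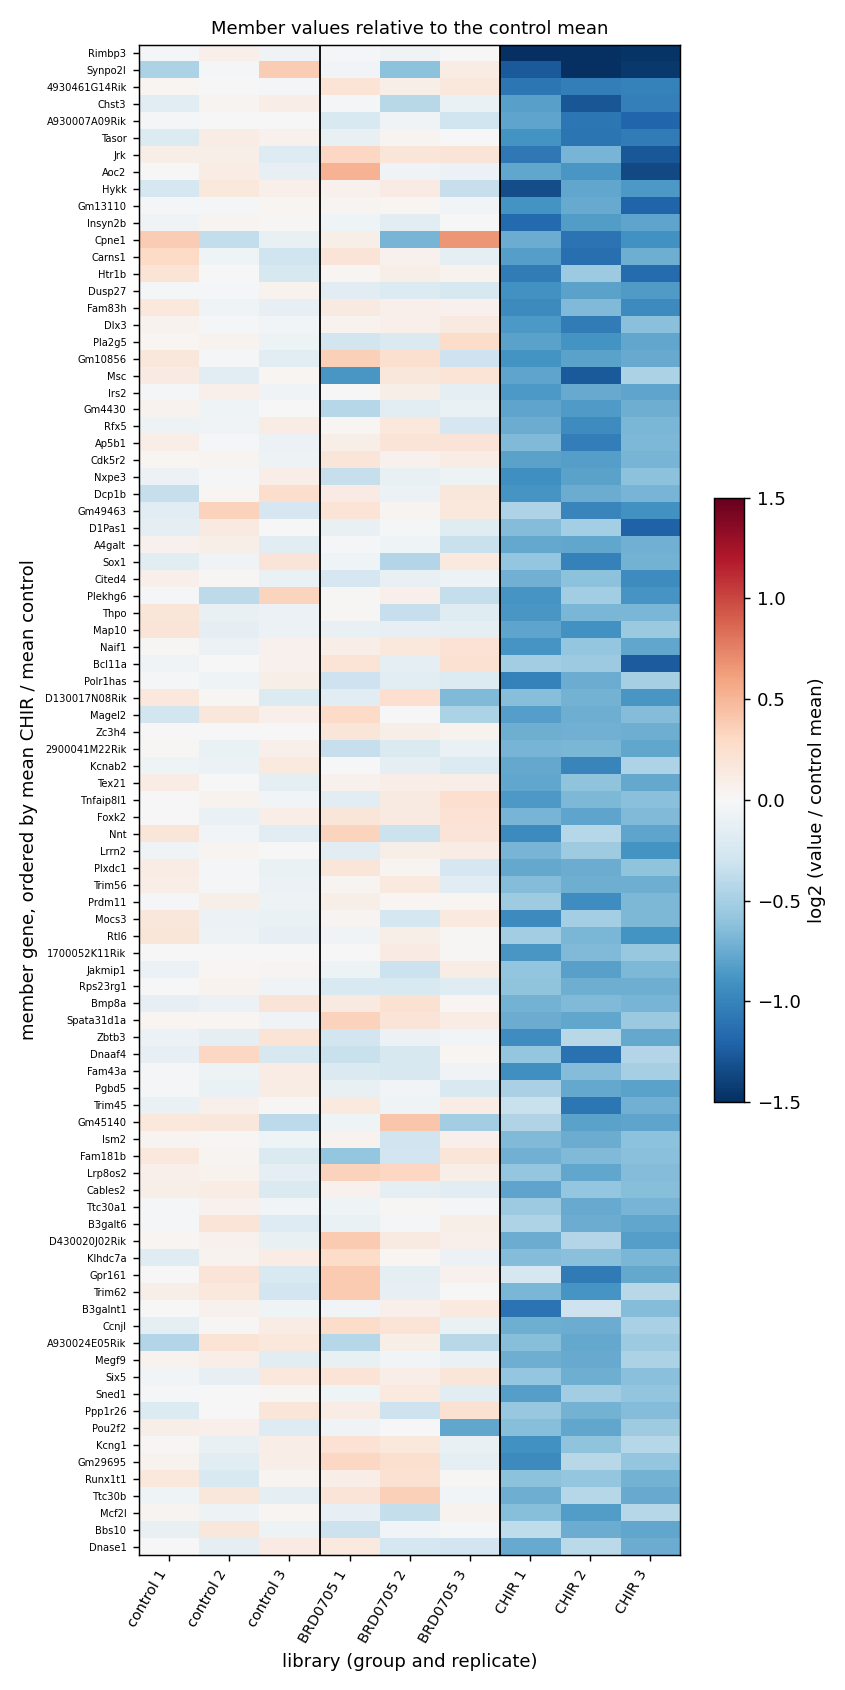
Heat map of the 89 genes (rows, ordered by mean CHIR over mean control) in the 9 libraries (columns); colour is log2 of the normalised count over the gene's control mean, and values below -1.5 take the darkest blue. The 3 CHIR columns are blue in all rows by the choice of genes, while control and BRD0705 columns scatter around white, with medians of 0.995 to 1.02 in the BRD0705 libraries.

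In 85 of the 89 genes the lowest BRD0705 library was above the highest CHIR library. The limits did not ask for this, though they made it likely; over all genes with a control mean of at least 50 the share was 13.1%, while 12.7% had every CHIR library below every control library. The 4 exceptions were Msc, D130017N08Rik, Gm45140 and Pou2f2, each with 1 low BRD0705 or 1 high CHIR library. The genes were mostly low in expression. Their control means had a median of 124 normalised counts, against 534 over all genes with a mean of at least 50; 32 were under 100, 52 between 100 and 500, and 5 were at 500 or more. The median raw count in a CHIR library was 75, at which counting alone gives a coefficient of variation of 11.5%. The observed median coefficient of variation with CHIR was 11.8%, close to that counting error. It was 8.995% in control and 9.57% with BRD0705, where levels were higher and the counting error was not computed. In a single fit over all 15366 genes tested (edgeR's quasi-likelihood test, Benjamini-Hochberg adjusted p under 0.05), 82 of the 89 were called lower with CHIR than control, against 3.78% of all genes called lower and 6.3% called in either direction. By edgeR none was called with BRD0705 against control (1.22% of all genes in either direction), where 5 had an unadjusted p under 0.05 and DESeq2 called 0. In the third comparison 77 were called higher with BRD0705 than with CHIR (4.8% of all). The choice of genes fixed these counts, and nothing is read from them.

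Silencing of chromatin and control of RNA make up a first group of 4 genes. Tasor (chr14:27423674-27483555; this and the spans that follow are RefSeq gene spans in GRCm38.p6) encodes a subunit of the HUSH complex, which silences transposon-derived and long intronless sequences. It was read at 805, 1003 and 969 normalised counts in control replicates 1, 2 and 3, at 859, 951 and 921 with BRD0705 and at 499, 435 and 447 with CHIR. The highest CHIR library was thus well below the lowest control library, and the BRD0705 libraries lay within the control range. Tasor is also the member with the most exons of any described here in full, 24, and its ratio of 0.497 corresponded to a fitted log2 difference of -1.02 (SE 0.08). Zc3h4 (chr7:16399583-16437696), a CCCH zinc finger protein that limits non-coding transcription outside genes, had the highest level per kilobase of transcript of the 86 genes of the set with an annotated transcript, 461 normalised counts per kb in control. It stood at 3258, 3251 and 3275 in control, 3693, 3461 and 3383 with BRD0705 and 1957, 1986 and 1969 with CHIR. Its replicates were close, the CHIR libraries formed a tight group near 0.604 of control, and all BRD0705 libraries were above all control libraries. Dcp1b, a cofactor of the mRNA decapping enzyme, had a ratio of 0.585. D1Pas1, a testis copy of the RNA helicase gene Ddx3x, had one of 0.590; reads of the 2 copies may be shared, so its value is uncertain.

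Transcription factors and cofactors were the largest group, with 12 genes and ratios of 0.561 to 0.645. Foxk2 (chr11:121259987-121309900), a forkhead factor, had the highest level per kb among them, 247 normalised counts per kb in control. It was read at 1328, 1240.4 and 1426 in control, 1509.7, 1459 and 1544 with BRD0705 and 821, 772 and 843 with CHIR. The CHIR libraries reached at most 843 and all BRD0705 libraries were above all control libraries. The 6 with the lowest ratios were Dlx3 (0.561), a homeobox factor of epidermis and placenta; Msc (0.571), the basic helix-loop-helix repressor musculin; Rfx5 (0.579), which activates MHC class II promoters; Sox1 (0.592), a marker of early neural cells; Cited4 (0.593), a partner of the CBP and p300 coactivators; and Bcl11a (0.60003), a zinc finger repressor of foetal globin genes. Rfx5 stood at 223, 227 and 254 in control, 239.9, 262 and 197 with BRD0705 and 139.9, 122 and 146 with CHIR. Its 3 CHIR libraries lay together below the other 6. In Msc 1 BRD0705 library (55.8) was as low as the CHIR libraries (58.9, 42.7 and 73.4), so its separation from BRD0705 is weak.

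A group of 5 genes was formed by origin from transposons or retrocopies. Each gene was given 1 group only, so this is no full count of that origin. D1Pas1, the copy of Ddx3x, was placed by function above. Jrk (chr15:74702412-74709322), which derives from a pogo-like transposase, was read at 112, 112 and 92.0 in control, 130.3, 119.6 and 120.2 with BRD0705 and 50.2, 65.2 and 43.6 with CHIR. BRD0705 was above every control library here, and the CHIR libraries were the lowest 3 of 9. The others were Magel2 (0.602), an intronless MAGE family gene, Rtl6 (0.617), descended from a retrotransposon gag gene, Rps23rg1 (0.619), a retrocopy of a ribosomal protein gene, and Pgbd5 (0.624), derived from a piggyBac transposase. Rps23rg1 closely resembles Rps23, so reads may be shared between them.

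Enzymes that build glycans in the Golgi apparatus gave 4 genes with ratios of 0.491 to 0.638. Chst3 (chr10:60181527-60222114), which adds sulphate to chondroitin chains, stood at 197, 225 and 234 in control, 215, 163 and 204 with BRD0705 and 124, 89.7 and 108 with CHIR. A single BRD0705 library was below the control range but above all CHIR libraries. A4galt (0.591), which makes the glycolipid Gb3, B3galt6 (0.633), which builds the linker that joins glycan chains to proteoglycans, and B3galnt1 (0.638), which makes globoside, completed this group. B3galnt1 had the widest CHIR spread of the 4, at 126, 220.0 and 173, against 271, 285 and 259 in control.

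Metabolic enzymes gave 7 genes. Hykk (chr9:54917290-54949924), hydroxylysine kinase, was at 127, 171 and 160.3 in control, 159, 166 and 120.2 with BRD0705 and 60.8, 88.7 and 84.1 with CHIR. In both of the groups without CHIR 1 library was lower than the others, yet above all CHIR libraries. Aoc2 (chr11:101323640-101329807), a copper amine oxidase known from retina, was near the level limit, at 54.8, 58.8 and 50.3 in control, 78.6, 52.7 and 51.4 with BRD0705 and 31.8, 29.9 and 21.3 with CHIR. Its BRD0705 replicate 1 was far above all other libraries. Carns1 (0.539), carnosine synthase, Pla2g5 (0.566), a secreted phospholipase A2, Nnt (0.613), the mitochondrial transhydrogenase of NADPH, and Mocs3 (0.615), a sulphur carrier enzyme for molybdenum cofactor and tRNA, followed. For Nnt, a second row described below was higher with CHIR, and the sum of both was at 0.962 of control.

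Testis and muscle genes, which are not known for a role in stem cells, numbered 5, with ratios of 0.271 to 0.620. Rimbp3 and Synpo2l among them had the lowest ratios of the set. Rimbp3 (chr16:17208135-17213982), a protein of the spermatid manchette, was read at 54.8, 58.8 and 54.1 in control, 54.8, 53.7 and 56.0 with BRD0705 and 13.5, 11.7 and 20.2 with CHIR. The 6 libraries without CHIR lay between 53.7 and 58.8, and CHIR was at 0.271 of control, a fitted log2 difference of -1.89 (SE 0.23). This rests on small numbers, since the lowest raw count of any gene of the set in a CHIR library was 11. Synpo2l (chr14:20658945-20668354), a Z-disc protein, stood at 39.7, 54.1 and 72.1 in control, 53.8, 36.2 and 59.6 with BRD0705 and 23.2, 19.2 and 20.2 with CHIR. Its control libraries spread widely, with an SD of 16.2 on a mean of 55.3, and its CHIR libraries were close together. Dusp27 (chr1:166098148-166127898), an inactive phosphatase relative of muscle, had more reads behind it, at 1032, 1039.9 and 1092 in control, 945, 916 and 896 with BRD0705 and 561, 607 and 583 with CHIR. All 3 BRD0705 libraries of Dusp27 were below all controls, at 0.872 of the mean, and far above the CHIR libraries. Tex21 (0.608) and Spata31d1a (0.620) are the other testis genes of this group.

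**Figure D2:**
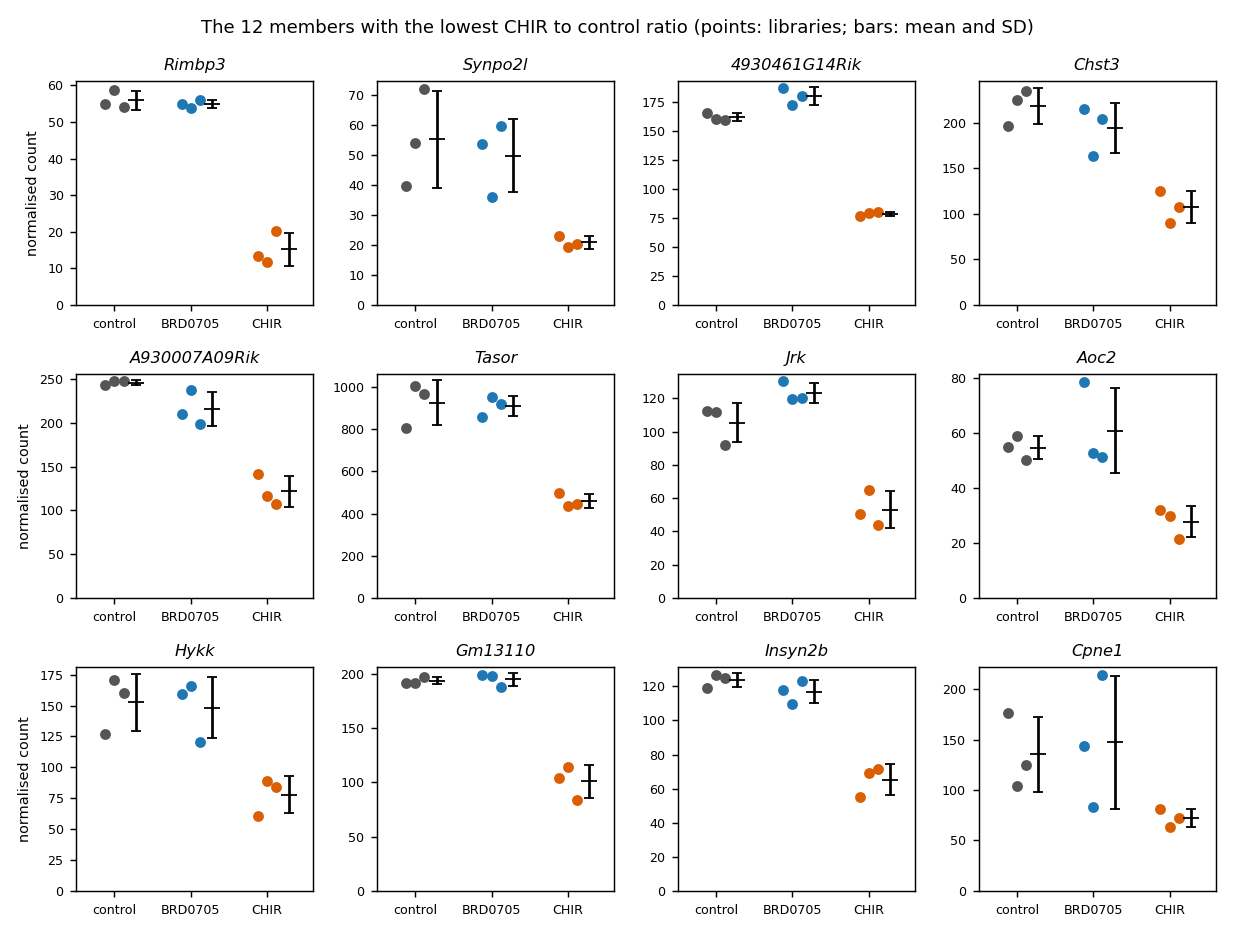
Normalised counts in each library (points) with mean and SD (bars, n = 3) for the 12 genes with the lowest CHIR to control ratio, one panel per gene with its own vertical axis from 0. CHIR points lie below all control and all BRD0705 points in each panel; the BRD0705 bars of Aoc2 and Cpne1 are wide.

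Signalling genes numbered 10, with ratios of 0.541 to 0.647. The 6 lowest were Htr1b (0.541), a serotonin receptor, Irs2 (0.573), an adaptor of the insulin receptor, Cdk5r2 (0.583), an activator of the kinase CDK5, Plekhg6 (0.595), Thpo (0.595), the ligand thrombopoietin, and Bmp8a (0.620), a ligand of the BMP family. Irs2 stood at 240.0, 256 and 236 in control, 245, 260.0 and 220.2 with BRD0705 and 134, 144 and 142 with CHIR. Cdk5r2 stood at 219, 221 and 203 in control, 244, 224 and 232 with BRD0705 and 122.6, 121 and 132 with CHIR. In both, the CHIR libraries were close together. BRD0705 overlapped control in Irs2 and was above it in all libraries of Cdk5r2.

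Genes of ion channels and of other proteins known from neurons gave 5 members. Insyn2b (chr11:34314822-34422642), of the inhibitory synaptic factor family, was at 119, 127 and 125 in control, 118, 109.7 and 122.9 with BRD0705 and 55.0, 69.4 and 71.3 with CHIR. The 6 libraries without CHIR lay between 109.7 and 126.8, and the CHIR libraries reached at most 71.3. Kcnab2 (0.607) and Kcng1 (0.644) encode potassium channel subunits, Lrrn2 (0.613) a leucine-rich repeat protein of neurons, and Jakmip1 (0.619) a microtubule-binding protein. Ciliary genes also numbered 5: Dnaaf4 (0.622) helps to assemble dynein arms, Ttc30a1 (0.631) and Ttc30b (0.645) encode a subunit of intraflagellar transport, Gpr161 (0.635) is a ciliary receptor of the Hedgehog pathway, and Bbs10 (0.648) is a chaperonin-like protein that helps to assemble the BBSome. Ttc30a1 and Ttc30b are near-identical copies, so they may not be 2 separate measurements. The roles given ended with 3 TRIM ubiquitin ligases: Trim56 (0.614), Trim45 (0.625) and Trim62 (0.637).

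A further 29 genes were given no role. Among them, 4930461G14Rik (chr9:58455173-58469623), a long non-coding RNA, had some of the closest replicates: 165, 160.4 and 159 in control, 187, 172 and 179.8 with BRD0705 and 76.2, 79.0 and 79.8 with CHIR. BRD0705 was above control in all libraries. A930007A09Rik (chr16:13754564-13758537), a single-exon gene, was at 243, 247 and 248 in control, 209.9, 237 and 199 with BRD0705 and 142, 116 and 108 with CHIR; here BRD0705 was below control in all libraries, at 0.876 of the mean. Gm13110 (chr4:154646630-154655742), another long non-coding RNA, was at 192, 191 and 197 in control, 199, 197 and 188 with BRD0705 and 104, 114 and 84.1 with CHIR. Control and BRD0705 values of Gm13110 overlapped and the CHIR values were at 0.521 of control.

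Fam83h (chr15:76001092-76014336), a protein known from tooth enamel and the keratin skeleton, was among the 6 with the highest normalised counts: 664, 568 and 546 in control, 652, 624 and 622 with BRD0705 and 307, 374 and 307 with CHIR. Polr1has stood at 402, 391 and 437 in control, 332, 366 and 357 with BRD0705 and 204, 246 and 291 with CHIR. Its BRD0705 libraries were all below control, at 0.857 of the mean, close to the lower limit of the band, and its CHIR libraries ranged widely. Cpne1 (chr2:156071841-156111965), of the calcium-dependent copine family, stood at 177, 104 and 125 in control, 144, 83.4 and 215 with BRD0705 and 81.1, 63.0 and 72.4 with CHIR. Its BRD0705 libraries spread widely, with an SD of 65.7 on a mean of 147, and it shares exons with 2 neighbours (Rbm12 and Gm28036).

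The limits cut through a continuous range of values. Just inside the ratio limit of 0.65 were Dnase1 (0.6496), Bbs10 (0.648) and Mcf2l (0.647), and just outside were Mucl3 (0.6505), Tubd1 (0.651) and 9630028I04Rik (0.652). At the lower edge of the BRD0705 band, Pou2f2 (0.851), A930024E05Rik (0.851) and Polr1has (0.857) were inside, and She (0.847), 2010320M18Rik (0.846) and Trmt12 (0.845) were outside. At the upper edge Lrp8os2 (1.19), Jrk (1.17) and Spata31d1a (1.17) were inside, and only E130317F20Rik (1.22) and Gm14760 (1.66) were outside. In all, 30 genes that met the other conditions were below the band and 2 were above it. Gm14760 had a CHIR ratio of 0.389 with BRD0705 at 1.66.

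Because the libraries that chose the genes also gave their values, the ratios are biased downwards. Such a bias was looked at in related gene sets by leaving out 1 replicate number from all 3 groups. Choosing on the other 2 gave 85, 96 and 102 genes when replicate 1, 2 or 3 was left out. Their median CHIR to control ratio was 0.602, 0.599 and 0.598 in the libraries that chose them and 0.662, 0.663 and 0.669 in the libraries left out. In the left-out libraries 78, 92 and 94 of these genes were below 1, against 46.8, 47.3 and 46.6% of all genes. A ratio of at most 0.65 was held by 40, 43 and 39 of them, or 47.1, 44.8 and 38.2%, against 2.27, 1.38 and 1.69% of all genes. The BRD0705 band was kept by 52, 63 and 72 genes, or 61.2, 65.6 and 70.6%, against 82.3, 81.3 and 83.5% of all genes, a lower share each time. In these gene sets the median with CHIR was thus below control in the left-out libraries too, with a smaller difference than in those that chose them. The sets are not the 89, and with 2 libraries per group the no-overlap limit is weaker. The bias of the 89 was therefore not itself measured. The labels do not say whether the left-out libraries came from separate cultures. Of the genes chosen this way, 59, 61 and 64 were among the 89. The shares of all genes given here were not matched for level. Counting error is larger at low counts, and its part in these shares was not tested. The replicate numbers name samples only, so this compares 1 control with 1 CHIR library each time and carries no test.

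**Figure D3:**
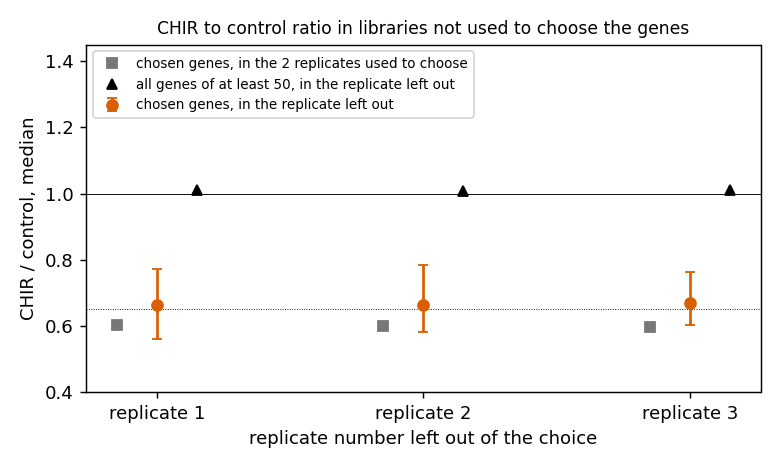
Median CHIR to control ratio of genes chosen on 2 replicate numbers (squares), and of the same genes in the replicate left out (circles, bars are quartiles), beside all genes with a control mean of at least 50 in the left-out replicate (triangles). The circles lie at 0.662 to 0.669, between the squares near 0.60 and the triangles near 1.01; the dotted line is the limit of 0.65.

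Gene structure was not used to choose the genes, and it differed from that of genes in general. Of the 89, 86 matched a gene in the GENCODE vM39 annotation (Dusp27, Ttc30a1 and Ttc30b did not), and 75 of these are protein-coding, 10 are long non-coding RNAs and 1 is of unsettled kind. Their canonical transcripts had a median of 4 exons, against 9 for all genes with a control mean of at least 50 and 7 for those with a mean of 50 to 500, the range that holds most of the 89. A single exon was found in 17 of 86 (19.8%), against 3.44% of all genes with a mean of at least 50 and 5.30% of those with 50 to 500. They are Rimbp3, A930007A09Rik, Gm4430, Cdk5r2, Gm49463, D1Pas1, Sox1, Cited4, Map10, Magel2, Mocs3, Rtl6, 1700052K11Rik, Fam43a, Fam181b, B3galt6 and Klhdc7a. A further 14, among them Jrk, Htr1b, Msc and Irs2, have 2 exons, so 31 of 86 (36.0%) have 1 or 2, against 7.93% and 11.9%. In 24 of the 75 coding genes (32.0%) the whole coding sequence lies in 1 exon, against 5.11 and 7.23%. At the other end, only Tasor, Plekhg6, Nnt, Sned1 and Mcf2l (5.81%) have more than 16 exons, against 21.02 and 15.6%.

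**Figure D4:**
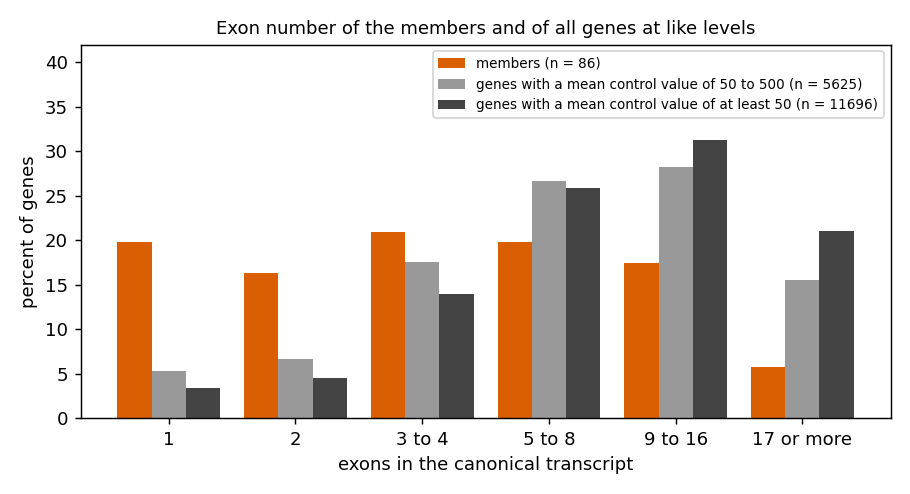
Share of genes (vertical axis, percent) by exon number of the canonical transcript for the 86 annotated genes of the set, for 5625 genes with a control mean of 50 to 500 and for 11696 with at least 50. The set exceeds both at 1 exon (19.8%), 2 exons and 3 to 4 exons, and falls below both at 5 exons and above.

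The low exon number did not come with short RNAs. Transcript length had a median of 3603 bases, against 3465 for all genes with a mean of at least 50. What differed was how the length was divided: the longest exon had a median of 2581 bases against 1722 and made up 74.5% of the transcript against 54.0%. For genes with a control mean of 50 to 500 these medians were 1748 bases and 58.5%. Summed intron length was shorter, with a median of 7487 bases against 18349, and 16272 for genes of 50 to 500. Rimbp3 is an example, with its 5380 bases in 1 exon, as are Jrk (5564 of 6132 bases in 1 of 2 exons) and Chst3 (5353 of 6194 bases in 1 of 4). Tasor, with 24 exons, and Zc3h4, with 13, show that few exons were no condition. GC content was 53.1% against 50.5%. The 3′ untranslated region was of similar length, with a median of 1554 bases against 1368, and an ATTTA pentamer, the core of AU-rich elements that shorten RNA life, was found in 76.0% against 72.6%. Long non-coding RNAs made up 11.6% against 1.64%, and 2.95% of genes of 50 to 500. Symbols of the Gm or Rik kind were 14.6% of the 89 against 4.20%, a share that is not matched for level. None of these values carries a test: they are counts over genes, which are not replicates.

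Over all genes with a control mean of at least 50, the 89 included, the median change with CHIR rose with exon number. The classes were not matched for level or kind of gene. A control mean of 50 to 500 was held by 298 of 402 single-exon genes, against 876 of 2458 with 17 or more. The part of level or kind of gene in this order was not tested. The spread within classes was wide, with quartiles of -0.27 and 0.07 for 1 exon and -0.05 and 0.09 for 17 or more. The median log2 ratio of CHIR to control was -0.07 for 402 single-exon genes, -0.02 for those with 2 exons, -0.01 for 3 to 4, 0.01 for 5 to 8, 0.02 for 9 to 16 and 0.03 for 17 or more. The share called lower by edgeR fell in the same order, 12.7, 8.57, 6.08, 3.97, 3.41 and 2.85%, while the share called higher did not, at 3.23, 3.62, 4.17, 3.61, 3.31 and 1.91%. The set, chosen for low CHIR values, held 17, 14, 18, 17, 15 and 5 genes of these classes. Part of the fall in the share called lower is therefore the choice itself, and values without the set were not computed. With BRD0705 the medians did not rise with each class, at -0.04, 0.02, -0.01, -0.02, -0.00 and 0.03. Genes with 1 exon were again lowest, however, and those with 17 or more highest. Under scaling by library size alone all 6 CHIR medians were below 0, from -0.11 to -0.01, in the same order. Genes too low to enter the set were read in the same libraries. Protein-coding genes with a control mean under 50 were summed in each library by exon number; the 389 single-exon genes summed to 3120, 3198 and 2908 in control, 3145, 3188 and 2999 with BRD0705, and 2785, 2775 and 2539 with CHIR. The 3 CHIR sums were below all others. Their mean was 12.2% lower than control for 1 exon, and 10.2, 6.65, 5.15, 4.11 and 3.02% lower for the classes that follow, with CHIR and control not overlapping up to 8 exons and overlapping above. BRD0705 sums were 1.16, 3.22, 3.89, 2.55, 4.32 and 6.66% higher than control in the 6 classes. The smallest rise was thus at 1 exon and the largest at 17 or more. These are descriptions of sums, chosen after the exon numbers of the set had been seen.

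**Figure D5:**
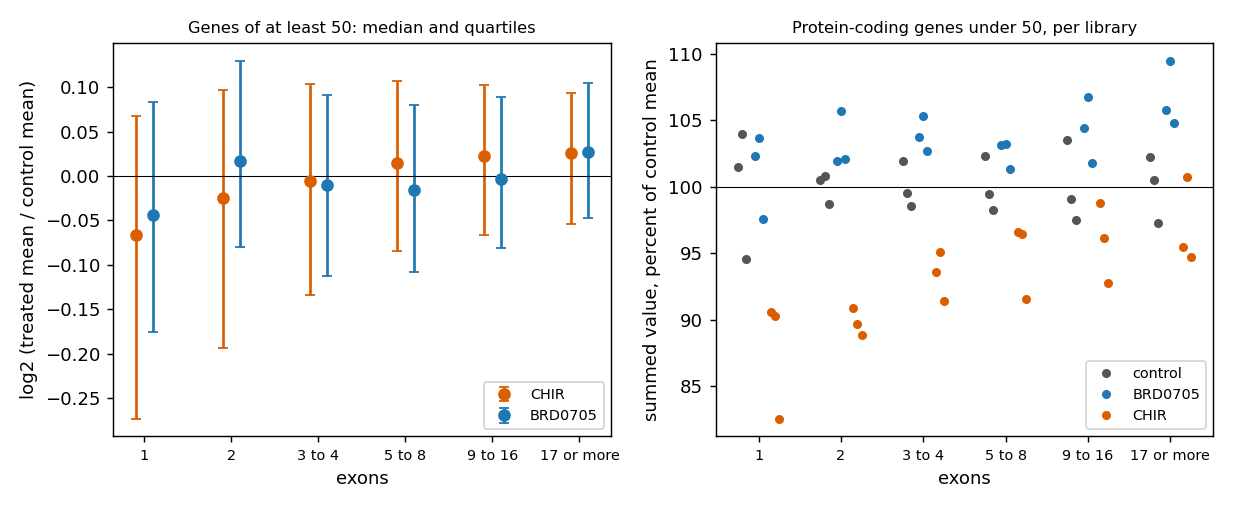
Left, median (points) and quartiles (bars) of the log2 ratio of the treated to the control mean by exon number for genes with a control mean of at least 50; right, summed normalised count of protein-coding genes under 50 in each library, as percent of the control mean. CHIR goes from -0.07 at 1 exon to 0.03 at 17 or more on the left, and its 3 libraries lie lowest at 1 and 2 exons on the right.

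Some of the values may depend on how reads were given to genes, since neither the labels nor the headers state whether strand was used. Exons of 48 of the 86 annotated genes (55.8%) lie opposite exons of another gene, against 62.1% of genes with a mean of at least 50. Exons are shared with a gene on the same strand in 13, some of which also have an opposite partner, and 33 have neither. Tasor overlaps Ccdc66 and Gm34702 on the opposite strand over 2920 of its exon bases, and reads from these genes could have been counted with it. For Nnt, a second row of the table, Nnt.1, stood at 1.37 of control with CHIR where the first stood at 0.613, and their sum was at 0.962, so a lower level of Nnt as a whole is not shown. Cpne1 with Gm28036 summed to 1299.85 normalised counts in control and 1105 with CHIR. With Rbm12 it summed to 0.994 of control, and Gm45140 to 0.780 with Rab43 and to 1.04 with Isy1. Gm28036, Rbm12 and Isy1 had far higher control means (1164, 1639 and 711) than Cpne1 (135) and Gm45140 (175), so these sums mostly follow the partner. Whether reads were divided between rows was not tested for any of these genes.

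Promoters were found in the RefSeq table for 71 of the 89 symbols, 86 promoters in all, each 250 bases before to 50 bases after a start. CCAAT, on either strand, was in 43 of them (50%), against 38.4% of 11968 promoters of genes with a control mean of at least 50 and 37.4% of all 32851 promoters; among 5626 promoters of genes with a mean of 50 to 500 the share was 38.4% too. GGGCGGG was in 39.5% against 47.6 and 25.6%, TATAAA in 6.98% against 6.79 and 13.6%, CACGTG in 8.14% against 10.2 and 7.15%, and CCGGAAG in 14.0% against 18.0 and 8.86%. TGACGTCA was in none of the 86, against 3.02 and 1.79%, and 2.52% at 50 to 500. The NRF1 motif and CTTTGAT were each in 1 promoter (1.16%), against 2.10 and 2.37% for genes with a mean of at least 50, 2.04 and 2.47% for those with 50 to 500, and 0.971 and 3.73% of all. Median GC was 58.0%, between 61.0% for promoters of expressed genes and 52.7% for all. A match is a string of letters and no evidence of binding.

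The machinery that makes and removes RNA was read in 3 lists of genes that are not in the set. How long the RNAs of the set last was not measured, and a link between these lists and the set was not tested. The shares of all genes given beside the lists were not matched for level. Of 26 genes of transcription elongation, 3 rose with CHIR and 1 fell (edgeR's quasi-likelihood test, adjusted over all genes, of which 2.52% were called higher and 3.78% lower; n = 3 per group). Cdk12, a kinase of RNA polymerase II, rose from 3653 ± 52.8 to 5022 ± 325 normalised counts (mean ± SD, n = 3) (log2 change 0.45, SE 0.07, adjusted p = 0.000548), and the P-TEFb cyclins Ccnt2 (0.44, SE 0.06, adjusted p = 0.000221) and Ccnt1 (0.35, SE 0.06, adjusted p = 0.00174) rose with it. Hexim1, which holds P-TEFb inactive, fell from 1776 ± 139.6 to 1307 ± 19.8 normalised counts (mean ± SD, n = 3) (log2 change -0.46, SE 0.07, adjusted p = 0.000428). All 4 calls held when any 1 of the 9 libraries was left out. The list's median log2 change was 0.09, against -0.01 over all genes tested.

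Of 29 genes of deadenylation and cytoplasmic decay, 7 rose with CHIR and none fell by edgeR, where 2.52% of all genes were called higher and 3.78% lower, with a list median of 0.06; 14 of the 29 had an unadjusted p under 0.05, and DESeq2 called 8. The 6 largest were Smg6 (0.38), the endonuclease of nonsense-mediated decay, Tob2 (0.29), which recruits the CCR4-NOT deadenylase, Smg5 (0.28), a partner in nonsense-mediated decay, Dcp1a (0.27), a decapping cofactor and paralogue of Dcp1b, Smg1 (0.24), the kinase of the same decay pathway, and Edc4 (0.21), a scaffold of decapping. By edgeR their adjusted p-values were 0.00145, 0.0168, 0.00254, 0.0166, 0.0196 and 0.0362. Smg6 and Smg5 held without any 1 library. Tob2 lost its call without CHIR replicate 2, control replicate 2 or control replicate 3, Dcp1a without CHIR replicate 2 or 3 or control replicate 3, Smg1 without CHIR replicate 1 or 3 or control replicate 1 or 3, and Edc4 without any 1 CHIR library or control replicate 2; adjusted p was then 0.0543 to 0.136 by edgeR.

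Of 26 genes of nuclear 3′ processing and nuclear decay tested (Zc3h4, in the set, was left out), 2 rose and 2 fell with CHIR, against the same shares of all genes (2.52% higher, 3.78% lower), with a list median of -0.02. Pcf11, which ends transcription, fell from 1384 ± 69.6 to 952 ± 37.3 normalised counts (mean ± SD, n = 3) (log2 change -0.55, SE 0.06, adjusted p = 3.81e-05 by edgeR), and Cstf3, a cleavage factor subunit, fell from 1799.9 ± 46.4 to 1428 ± 68.0 normalised counts (mean ± SD, n = 3) (-0.35, SE 0.06, adjusted p = 0.00178 by edgeR). Zfc3h1, which links the nuclear exosome to polyadenylated RNA, rose by 0.27 (SE 0.06, adjusted p = 0.00882 by edgeR), and Cpsf4, a cleavage factor subunit, by 0.22 (SE 0.06, adjusted p = 0.0247 by edgeR). Cpsf4 lost its call without CHIR replicate 2, control replicate 2 or control replicate 3, with adjusted p of 0.0698 to 0.101 by edgeR. With BRD0705 none of the 26, 29 and 26 genes was called by edgeR; the share over all genes was 1.22%. In the 3 lists 4, 7 and 4 had an unadjusted p under 0.05, and DESeq2 called 1 in each list (Ell, Cnot2 and Pabpn1). Whether these genes differ between CHIR and BRD0705 was tested directly: Cdk12, Ccnt1 and Ccnt2 were lower and Hexim1 higher with BRD0705 than with CHIR, as were 3 decay genes lower, and 3 nuclear genes higher and 1 lower, all by edgeR. Of all genes, 4.8% were called higher and 2.97% lower in that comparison.

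Reversing the limits gave fewer genes. By the mirrored limits (a CHIR mean of at least control divided by 0.65, no overlap, BRD0705 in the band) 9 symbols were higher with CHIR, where 101 met the original limits before symbols were left out. With the same kinds of symbol left out, the counts were 7 and 89. The minimum for the control mean was not reversed. Control is the lower group for genes higher with CHIR, so genes that rose from a control mean below that minimum were not counted. The counts in both directions are therefore not over like genes, and no imbalance is read from them. Among the 7 were Ddit3 (1.62), a stress-response transcription factor, and Ptgs2 (1.55), the inducible cyclooxygenase. The original limits with BRD0705 and CHIR exchanged were met by 1 gene, Slc26a6 (0.643 with BRD0705, 0.913 with CHIR), an anion exchanger. These mirrored limits were set after the 89 genes were known.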

How the data were processed

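RNA was sequenced from 9 libraries, 3 per group, with groups and replicate numbers taken from the labels. Raw counts, as the authors deposited them, are whole numbers of reads for 52264 gene symbols. They also deposited a normalised table, used here as a signal of scaled counts; within each library it equals the raw count divided by 1 factor (0.912 to 1.09), to a deviation of 5.10e-10, and these factors match median-of-ratios size factors. The submitters' processing notes name RSEM, DESeq2 and mm10, with no role or version; aligner, annotation and strand use are not given in the sources used here. Per the labels, libraries were made with ribosomal RNA removal, while the molecule is given as polyA RNA, and 2 different extraction kits are named; which applies is not known.

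The choice of the 89 genes used the deposited normalised values. The members, the gene lists and the tests were chosen with earlier results of these data known. Chosen after the values had been seen were the roles, the comparison with genes of 50 to 500, the leaving out of a replicate number in all groups, the exon classes over all genes and the mirrored limits.

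Tests on the raw counts used edgeR 4.0.16 under R 4.3.3 (TMM scaling, filterByExpr with a minimum count of 10, quasi-likelihood F test, 2-sided, all 9 libraries in a fit of 3 group means, 15366 genes), with Benjamini-Hochberg adjustment at 0.05. DESeq2 1.42.0 was an alternative. On simulated counts for CHIR against control (15191 genes tested) the fit recovered 81.9% of genes changed by a log2 of 1 and 60.0% of those changed by 0.5, or 100% and 83.1% above 5 CPM, with 6.54% of calls false. Named with values in every library are the 12 genes of lowest ratio and the 6 of highest control mean, by role at most 6 of lowest ratio, and per list at most 6 called genes by log2 change; others shown in full were picked after their values were seen. Gene structure came from the canonical transcript in GENCODE vM39, matched by symbol, and coordinates and promoters from RefSeq in GRCm38.p6. Other tools were Python 3.11.15, pandas 2.3.3, numpy 2.4.6 and matplotlib 3.10.9. Counting error covers reads only, since molecules were not tagged.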

Additional observations from a re-analysis of the deposited data

How the results depend on the processing

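The number of genes that met the limits was 89 and followed the limits closely. It was 155 with a control minimum of 20 and 57 with 100, 36 with a CHIR limit of 0.60 and 156 with 0.70, and 79 to 108 when 1 library was left out. Under TMM-scaled library sizes 98 genes met the limits, 87 of them among the 89, and under library size only 112, which held all 89. The median ratio of the 89 was 0.592 by library size only and 0.598 to 0.608 without 1 library. Without genes whose exons overlap another gene, 33 of the 89 were left. With the longest transcript in place of the canonical one the median exon number stayed at 4 and transcript length was 3989 bases.

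The count of all genes called was 968 for CHIR against control and 514 to 1070 without 1 library. It was lowest without CHIR replicate 2 (514), and lower by over 1.5 times also without CHIR replicate 1 (633), control replicate 2 (523) or control replicate 3 (561). For BRD0705 against control it was 188, but 474 by DESeq2, 609 with no low-count filter and 21 to 305 without 1 library: 21 without BRD0705 replicate 1, 55 without BRD0705 replicate 2, 305 without BRD0705 replicate 3, 98 without CHIR replicate 2, and 292, 37 and 51 without control replicate 1, 2 or 3. For BRD0705 against CHIR it was 1194, and 616 to 1313 without 1 library, with 616 and 756 without BRD0705 replicate 1 or 2 and 675 and 617 without CHIR replicate 1 or 2.

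Of the elongation list, 4 genes were called with CHIR, and 7 with no low-count filter (4 to 6 without 1 library). With BRD0705 none was called, and 1 was called in the replicate block, by DESeq2, with no low-count filter or with DESeq2-type size factors in edgeR (0 to 1 without 1 library). Of the decay list 7 were called with CHIR (3 to 8 without 1 library) and none with BRD0705, where DESeq2 called 1 (0 to 1 without 1 library). Of the nuclear list 4 were called with CHIR (3 to 4 without 1 library); with BRD0705 none was called, and 1 was in the replicate block, by DESeq2 or with no low-count filter. The cause of these differences was not tested.

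Replicate numbers shared between groups showed no pairing. Over 9 pairs of like number, deviations from the group means correlated at -0.00119 on average, against 0.000622 over 18 pairs of unlike number, so the numbers do not pair the samples. With the replicate number as a block, 973, 222 and 1177 genes were called in the 3 comparisons. Depth limits the set at its low end, where 28 genes had a median raw count under 50 with CHIR.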

Other observations

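The symbols higher with CHIR by the mirrored limits were Ddit3, Gm10323, Gm32856, Gm48218, Nopchap1, Ptgs2, Slc38a6, Zc3h11a.1 and Zfp997. Zc3h11a.1 stood at 1.65 of control with CHIR and 0.988 with BRD0705, while Zc3h11a itself met the limits of the set and was left out by name. Nopchap1, a chaperone cofactor of small nucleolar ribonucleoprotein assembly, was at 775 ± 50.6 in control, 755 ± 19.0 with BRD0705 and 1321 ± 46.9 with CHIR (mean ± SD of normalised counts, n = 3). Ptgs2 was at 1078 ± 74.5, 1220.3 ± 109.8 and 1667 ± 155.2 in the same order. Of the 8 with an annotated exon number, Gm48218 has a single exon and the others have 3 to 16.

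By symbol family, solute carriers (188 genes with a control mean of at least 50), transmembrane protein genes (134), genes of RNA helicases and RNA-binding motif proteins (85) and deubiquitinases (51) gave no member of the set. SCAN zinc finger genes (18) gave none either, and ubiquitin ligases of the RING, F-box and Kelch families gave 3 of 174, all of the TRIM family. The set holds 0.747% of all 11915 genes with a control mean of at least 50, so families of these sizes would hold few or no members at that share, and nothing is read from these counts.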
